A study of Mus musculus with 6 samples.

Results

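The genes described here are 5 genes of fast inhibition in the spinal cord: Glrb and Glra1, which encode subunits of the glycine receptor, Gad1 and Gad2, which encode both forms of the enzyme that makes GABA, and Slc32a1, which encodes the vesicle transporter of both transmitters. They were taken by symbol, not by a cut on a measured value, but earlier results of these data were known when they were chosen. Each has 1 probe set with a single gene symbol, so the 5 genes stand for 5 of the 8251 genes that the array names in this way. Spinal cord RNA of mice was measured on 6 Affymetrix arrays, with 1 array for each of 3 genotypes at 2 ages. Mice with the G93A variant of superoxide dismutase (G93A-SOD1) are labelled B6SJL-G93A-SOD1H at 110 days and B6SJL-G93A-SOD1 at 75 days. The submitters describe them as trembling and partly paralysed at the older age and as free of symptoms at the younger age. Mice with a wild-type SOD1 transgene (WT-SOD1) are described as free of disease, and their strain label, given at 75 days only, also names B6SJL. The nontransgenic mice were B6SJL without a transgene. Per the labels, 4 cords were used for the RNA. The sex of the mice and the promoter and copy number of the transgenes are not given in the sources used here.

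Glycine and GABA are the fast inhibitory transmitters of the cord. Inhibitory interneurons make GABA from glutamate, load GABA and glycine into vesicles through a shared transporter, and release them onto motor neurons and other interneurons, where chloride-conducting receptors open. Adult spinal glycine receptors combine alpha subunits, chiefly the Glra1 product, with the beta subunit from Glrb, which anchors them to gephyrin under the synapse. In humans, loss of GLRA1 or GLRB function causes startle disease, and the mouse mutants spasmodic and spastic carry changes in Glra1 and Glrb.

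The WT-SOD1 and nontransgenic arrays of an age served together as its disease-free arrays, since no genotype has a second array at either age. Values are linear intensities in arbitrary units, and values under 31, the 25th percentile, were raised to it before log2 was taken. Tests took in the 6737 of 12422 probe sets that read above the pooled median of 79.7 on 1 or more arrays. Glrb, Glra1, Gad1 and Slc32a1 were tested. Gad2 stayed under that level on every array and has values but no test. The number of arrays limits the precision: the spread behind each p-value is that between arrays of different genotype, and the lone G93A-SOD1 array of an age is taken to have the same spread. Sod1 read 1716 (110 days) and 1738 (75 days) in G93A-SOD1 cord, 1906 and 1583 in WT-SOD1 cord, and 1498 and 1037 in nontransgenic cord, so all transgenic arrays lay above both nontransgenic ones. The median intensity of the arrays lay between 77.7 and 80.9. Of 14 Hox genes on the array, which mark position along the cord, 10 passed the filter and 0 were at the floor on all arrays. Their summed intensity was 2341 (110 days) and 2572 (75 days) in G93A-SOD1 cord and 2233 to 2360 in disease-free cord. None of the 10 passed the limma test at either age, and their median log2 difference was 0.00 at 110 days and 0.24 at 75 days. At 75 days 3 of them lay higher with an unadjusted p under 0.05, which 3.34% of all tested probe sets did. On both G93A-SOD1 arrays 4 of the 10 read above all disease-free arrays, where 6.23% of all tested probe sets did. The part of position along the cord in the results was not tested.

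Of the 5 genes, 4 (Glrb, Gad1, Gad2 and Slc32a1) read lower on both G93A-SOD1 arrays than on any of the 4 disease-free arrays, and Glra1 did not. Such a complete separation was seen for 15.6% of the tested probe sets and for 10.3% of all probe sets. The reverse, both G93A-SOD1 arrays above all disease-free arrays, was seen for 6.23% of the tested probe sets. None of the 4 tested genes passed the limma test in any comparison after adjustment over all probe sets, where 1.51% of the probe sets passed at 110 days and 0% at 75 days. At 110 days, 3 of them had an unadjusted p under 0.05 and lay lower, which 5.61% of the tested probe sets did. At 75 days 0 of them had an unadjusted p under 0.05, beside 6.52% of the tested probe sets that lay lower and 3.34% that lay higher with such a p.

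**Figure D1:**
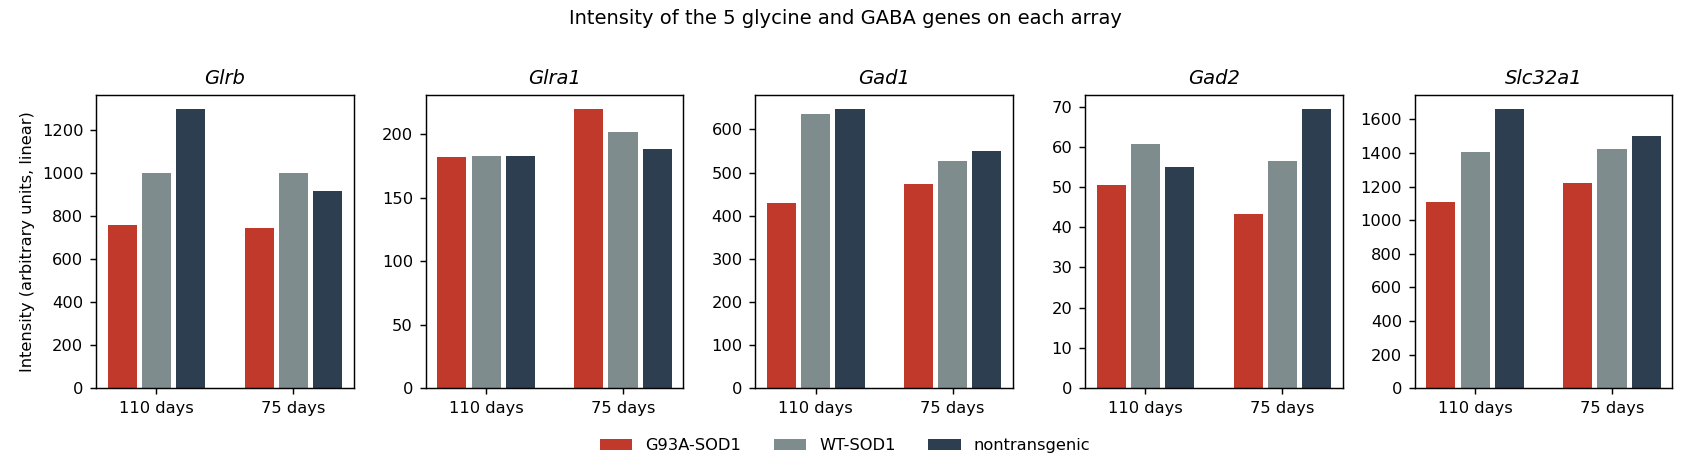
Intensity (linear, arbitrary units, each axis from 0) of the 5 genes on each of the 6 arrays, 1 bar per array, with the 110-day arrays left of the 75-day arrays and G93A-SOD1 first within each age. The G93A-SOD1 bars are the shortest of their age for Glrb, Gad1, Gad2 and Slc32a1, whereas Glra1 reads 182 to 183 on all 110-day arrays.

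Among the receptor genes, Glrb, on chromosome 3, read 759 in G93A-SOD1 cord at 110 days, against 997 in WT-SOD1 and 1296 in nontransgenic cord. At 75 days it read 741 in G93A-SOD1 cord, against 999 in WT-SOD1 and 917 in nontransgenic cord. Both G93A-SOD1 values were thus close to each other and under every disease-free value, while the nontransgenic 110-day array stood apart above the others. The level in G93A-SOD1 cord at 110 days was 23.8% under the WT-SOD1 and 41.4% under the nontransgenic array. At 75 days the corresponding shares were 25.8% and 19.1%. The log2 difference from disease-free cord at 110 days was -0.58 ± 0.18 (SE, 95% interval -1.01 to -0.15), with an unadjusted p of 0.015 and an adjusted p of 0.288 in limma. Of all tested probe sets, 1.59% had a lower estimate. At 75 days the log2 difference was -0.37 ± 0.18 (SE, 95% interval -0.80 to 0.06, adjusted p = 0.547).

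Glra1, on chromosome 11, gave no such separation. Its intensity at 110 days was 182 in G93A-SOD1 cord, against 183 in both WT-SOD1 and nontransgenic cord. At 75 days it was 220 in G93A-SOD1 cord, against 202 in WT-SOD1 and 188 in nontransgenic cord. The 110-day arrays were therefore nearly level, and the highest value of all was that of the 75-day G93A-SOD1 array. The log2 difference was -0.01 ± 0.13 (SE) at 110 days, and its 95% interval of -0.32 to 0.31 still allows a difference of either sign (adjusted p = 0.9998). The estimate at 110 days lay above 0, at 0.029, after quantile normalization. At 75 days the log2 difference was 0.17 ± 0.13 (SE, 95% interval -0.14 to 0.49, adjusted p = 0.688).

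Gad1, on chromosome 2, encodes the form of glutamate decarboxylase that is spread through the whole neuron. It read 430 in G93A-SOD1 cord at 110 days, against 636 in WT-SOD1 and 647 in nontransgenic cord. Its 75-day intensity was 473 in G93A-SOD1 cord, against 526 in WT-SOD1 and 551 in nontransgenic cord. The disease-free arrays of an age lay close together for this gene, and the gap to G93A-SOD1 was wider at the older age. At 110 days the G93A-SOD1 level was 32.4% under WT-SOD1 and 33.6% under nontransgenic cord, and at 75 days it was 10.2% and 14.2% under them. The log2 difference at 110 days was -0.58 ± 0.13 (SE, 95% interval -0.89 to -0.27). Its unadjusted p of 0.00299 was the smallest among the 4 tested genes, and its adjusted p in limma was 0.121. The log2 difference at 75 days was -0.19 ± 0.13 (SE, adjusted p = 0.66).

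Gad2, also on chromosome 2, encodes the decarboxylase form enriched at nerve terminals. Its probe set was dim: it read 50.5 in G93A-SOD1 cord at 110 days, against 60.7 in WT-SOD1 and 54.9 in nontransgenic cord. The younger arrays gave 43.3 in G93A-SOD1 cord, against 56.6 in WT-SOD1 and 69.4 in nontransgenic cord. Unlike Gad1, its gap to disease-free cord was wider at the younger age, with log2 differences of -0.19 at 110 days and -0.53 at 75 days. When the filter was dropped and Gad2 was tested with all 12422 probe sets, its adjusted p was 1 at 110 days and 0.623 at 75 days. All 6 values lay between 43.3 and 69.4, close to the floor of 31. With the floor at the 40th percentile, 56.6, the 75-day value was -0.15.

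Slc32a1, on chromosome 2, encodes the transporter that loads both GABA and glycine, and so marks all inhibitory terminals. It read 1110 in G93A-SOD1 cord at 110 days, against 1406 in WT-SOD1 and 1662 in nontransgenic cord. At 75 days it read 1224 in G93A-SOD1 cord, against 1424 in WT-SOD1 and 1503 in nontransgenic cord. Again both G93A-SOD1 arrays were lowest, and the nontransgenic 110-day array was highest. The 110-day level in G93A-SOD1 cord was 21.1% under WT-SOD1 and 33.2% under nontransgenic cord. The log2 difference was -0.46 ± 0.15 (SE, 95% interval -0.82 to -0.10) at 110 days, with an unadjusted p of 0.019 and an adjusted p of 0.318. At 75 days it was -0.26 ± 0.15 (SE, adjusted p = 0.613). In bulk cord, fewer inhibitory neurons and less of a transcript per neuron cannot be told apart, here and for the other genes.

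**Figure D2:**
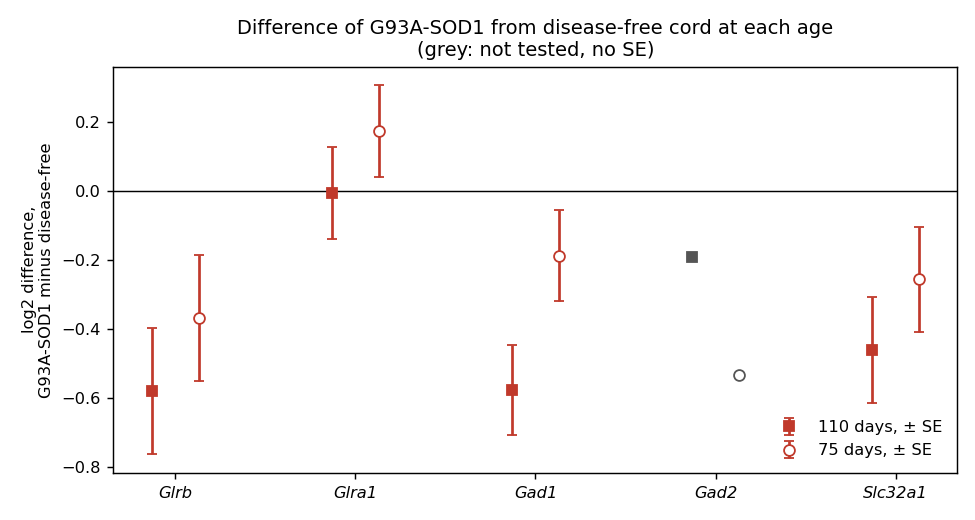
Log2 difference of G93A-SOD1 from disease-free cord for each gene at 110 days (filled squares) and 75 days (open circles), with bars of 1 moderated SE from limma where the gene was tested. Glrb, Gad1 and Slc32a1 lie below 0 at both ages, Glra1 lies at -0.01 and 0.17, and Gad2 (grey) has no SE.

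Whether the 110-day differences passed depended on which disease-free array of that age was kept. Of all tested probe sets, 0.134% passed as lower at 110 days. Without the WT-SOD1 110-day array, Glrb (log2 difference -0.77, adjusted p = 0.0164), Gad1 (-0.59, adjusted p = 0.0306) and Slc32a1 (-0.58, adjusted p = 0.0326) all passed. In that setting 5.82% of the tested probe sets passed as lower. Without the nontransgenic 110-day array none of the 3 passed: Glrb stood at -0.39 (adjusted p = 0.213), Gad1 at -0.57 (adjusted p = 0.0652) and Slc32a1 at -0.34 (adjusted p = 0.267), beside 0.623% of the tested probe sets passing as lower. Gad1 thus gave nearly the same estimate against either array, while Glrb and Slc32a1 did not. Over the 14 alternatives, the 110-day estimate lay between -0.77 and -0.39 for Glrb, between -0.59 and -0.53 for Gad1, and between -0.58 and -0.34 for Slc32a1. In the alternatives that kept all arrays, the adjusted p was 0.031 to 0.76 for Glrb, 0.0538 to 0.335 for Gad1 and 0.111 to 0.728 for Slc32a1.

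The change of the G93A-SOD1 difference between the ages was tested directly, with the 110-day difference minus the 75-day difference. It was -0.39 ± 0.19 (SE) for Gad1 on the log2 scale, with an unadjusted p of 0.073 and an adjusted p of 0.857. For Glrb it was -0.21 ± 0.26 (SE), for Slc32a1 -0.21 ± 0.22 (SE) and for Glra1 -0.18 ± 0.19 (SE), each with an adjusted p of 0.998. Leaving out 1 array moved the value between -0.40 (without the WT-SOD1 110-day array) and -0.024 (without the nontransgenic 110-day array) for Glrb, and between -0.33 and -0.084 without the same arrays for Slc32a1. None of the 4 tested genes passed, where 0.416% of the tested probe sets did. Within the G93A-SOD1 arrays the 110-day intensity was 1.02 times the 75-day one for Glrb, 0.91 times for both Gad1 and Slc32a1, 0.828 times for Glra1 and 1.17 times for Gad2. With 1 array at each age these ratios have no error.

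None of the 4 tested genes passed between disease-free cord at 110 days and at 75 days. Gad1 had the lowest unadjusted p, 0.0495, with a log2 difference of 0.25 ± 0.11 (SE, adjusted p = 0.998) and higher values on both 110-day arrays, 636 and 647, than on both 75-day arrays, 526 and 551. Glrb was at 0.25 ± 0.15 (SE), Slc32a1 at 0.06 ± 0.13 (SE) and Glra1 at -0.09 ± 0.11 (SE), all with an adjusted p of 0.998, and Gad2, not tested, at -0.12. The Glrb value was 0.44 when the 110-day WT-SOD1 array was left out and 0.058 when the 110-day nontransgenic one was. The Gad2 value turned to 0.029 without the nontransgenic 75-day array, and the Glra1 value was -0.044 without the WT-SOD1 75-day array and -0.14 without the nontransgenic one. The sign for Slc32a1 turned to -0.038 with quantile normalization and to -0.057 without the nontransgenic 110-day array. Of all tested probe sets 0.0148% passed, and 2.55% were higher at 110 days with an unadjusted p under 0.05.

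The WT-SOD1 transgene without disease was compared with the nontransgenic arrays of both ages. WT-SOD1 minus nontransgenic was -0.13 for Glrb, -0.16 for Slc32a1, -0.05 for Gad1 and 0.05 for Glra1 on the log2 scale, each ± 0.19 (SE, adjusted p = 1). Gad2, not tested, stood at -0.08. For Glrb the sign differed between ages, at -0.38 at 110 days and 0.12 at 75 days, and for Gad2 it was 0.14 and -0.29. Slc32a1 was lower in WT-SOD1 cord at both ages, with log2 differences of -0.24 at 110 days and -0.08 at 75 days. Here 0.104% of the tested probe sets passed. The SE of this fit was a single value shared by all tested probe sets, so it holds no spread of the single gene. The 95% intervals built on it leave room for differences of the size seen in G93A-SOD1 cord at 75 days. For Glrb the interval was -0.51 to 0.25.

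Sequences around a start site of each of the 4 genes that lay lower on both G93A-SOD1 arrays are shown because these genes shared that order. They come from RefSeq promoter windows of GRCm38.p6, 250 bases before to 50 after the start used there, read 5′ to 3′ on the gene's strand. For Gad1, Gad2 and Slc32a1 the whole window lies inside the gene's RefSeq span, which begins at base 70561303, 22621015 and 158607260. These windows thus do not hold the outermost start of the gene. The Glrb window holds the outer end of its gene's span, 80913660. A window was matched for 4 of the 5 genes, and Glra1 is named only. Capitals mark matches, on either strand, to the letters TATAAA of the classical core promoter box, GGGCGG of the GC box bound by Sp1-type factors, GGACAGC or TTCAGCACC from the RE1 element bound by the neuronal gene repressor REST, and TGACGTCA of the cAMP response element.
Glrb, chr3:80913611-80913910, minus strand: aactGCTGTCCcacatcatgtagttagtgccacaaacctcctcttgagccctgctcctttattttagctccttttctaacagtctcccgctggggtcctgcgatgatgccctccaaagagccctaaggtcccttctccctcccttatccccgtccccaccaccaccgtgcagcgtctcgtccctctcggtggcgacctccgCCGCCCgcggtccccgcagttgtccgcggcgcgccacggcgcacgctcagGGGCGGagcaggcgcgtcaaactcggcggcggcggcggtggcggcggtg
Gad1, chr2:70561879-70562178, plus strand: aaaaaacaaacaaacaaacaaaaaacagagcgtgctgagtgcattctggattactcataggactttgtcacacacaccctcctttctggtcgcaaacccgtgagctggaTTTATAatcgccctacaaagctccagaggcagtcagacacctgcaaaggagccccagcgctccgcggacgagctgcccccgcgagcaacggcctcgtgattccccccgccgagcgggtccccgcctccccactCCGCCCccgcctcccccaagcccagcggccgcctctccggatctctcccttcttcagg
Gad2, chr2:22622077-22622376, plus strand: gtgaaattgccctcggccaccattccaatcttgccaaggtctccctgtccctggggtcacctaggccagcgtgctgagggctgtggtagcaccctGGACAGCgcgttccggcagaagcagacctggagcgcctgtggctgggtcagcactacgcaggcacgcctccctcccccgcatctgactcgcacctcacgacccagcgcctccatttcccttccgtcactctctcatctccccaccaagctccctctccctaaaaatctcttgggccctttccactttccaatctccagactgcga
Slc32a1, chr2:158610508-158610807, plus strand: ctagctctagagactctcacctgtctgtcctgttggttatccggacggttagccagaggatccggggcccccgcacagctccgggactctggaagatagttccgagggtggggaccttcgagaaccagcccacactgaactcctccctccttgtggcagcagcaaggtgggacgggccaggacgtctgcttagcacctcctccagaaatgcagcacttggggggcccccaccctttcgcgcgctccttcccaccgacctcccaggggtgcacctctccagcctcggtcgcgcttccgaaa
The Glrb window held 2 GC boxes and 1 match to GGACAGC. Gad1 held 1 match to TATAAA, on the opposite strand, and 1 GC box. Gad2 held 1 match to GGACAGC, and Slc32a1 held none of these letters. The marked matches do not overlap. Of all 32851 windows of this length, 35.7% held the GC box, 13.6% TATAAA, 6.56% GGACAGC, 1.79% the cAMP response element and 0.371% TTCAGCACC. No motif was thus shared by all 4 genes, and the matches are a description of letters. The 4 windows were alike in base composition, with a GC content of 65.7% for Glrb, 63.3% for Slc32a1, 61.3% for Gad2 and 60% for Gad1, above the median of 52.7% over all windows.

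The wider machinery of inhibition was read from 6 lists with 72 genes, of which 48 were on the array by a single-symbol probe set and 34 passed the filter. In each of the 5 comparisons 0 of the 34 passed the limma test. With an unadjusted p under 0.05, 7 of them lay lower and 1 higher in G93A-SOD1 cord at 110 days, and 5 lay lower and 2 higher at 75 days. Of all tested probe sets 5.61% lay lower and 4.68% higher in this way at 110 days, and 6.52% and 3.34% at 75 days. The filter itself selected some of these genes: Gabrg1 and En1 passed it only through a G93A-SOD1 array, and Gabra6 and Slc12a5 only through disease-free arrays. Without these 4 genes 7 lay lower and 0 higher at 110 days, and 3 lay lower and 1 higher at 75 days. At 110 days 24 of the 34 had an estimate below 0, against 55.1% of all tested probe sets, with a median log2 difference of -0.13 against -0.02 over all tested probe sets. At 75 days 23 of 34 lay below 0, against 57.5% of all, with a median of -0.13 against -0.04. On both G93A-SOD1 arrays 9 of the 34 read below all disease-free arrays, where 15.6% of all tested probe sets did, and 0 read above them. Without the 4 genes just named it was 7 of 30. The 5 genes are part of these lists, so their values enter the counts. The lists, like the 5 genes, were chosen with earlier results of these data known.

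**Figure D3:**
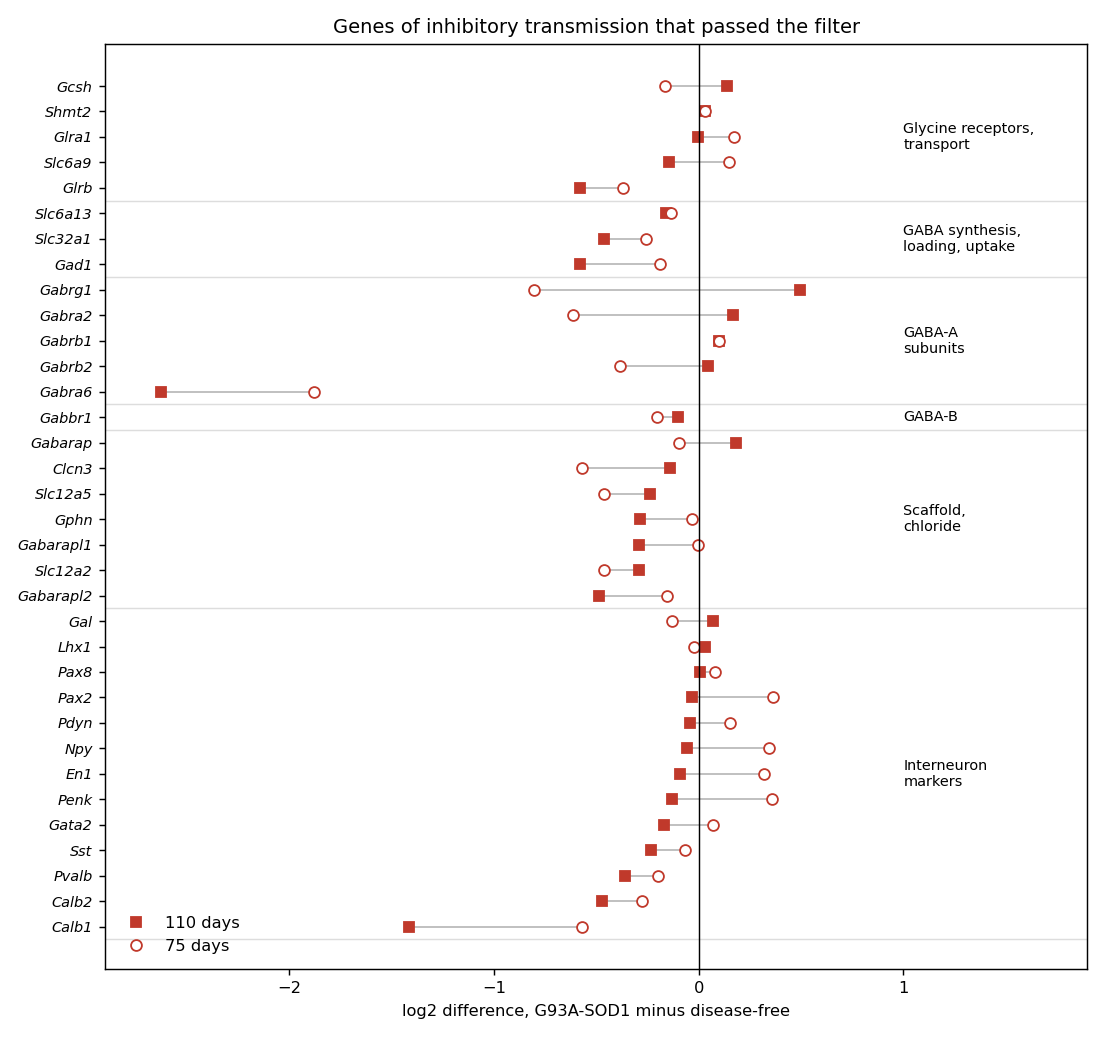
Log2 difference of G93A-SOD1 from disease-free cord at 110 days (filled squares) and 75 days (open circles) for the 34 genes of 6 lists that passed the filter, with a line joining both ages of a gene. No gene passed the test at either age, and Gabra6 and Calb1 lie farthest to the left.

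Beside Glrb and Glra1, the glycine list held Slc6a9, the glial glycine transporter, at a log2 difference of -0.15 ± 0.15 (SE, adjusted p = 0.911) at 110 days, and Gcsh, a subunit of the glycine cleavage system, at 0.14 ± 0.15 (SE, adjusted p = 0.92). Of 7 genes of this list on the array 5 were tested. At 110 days 3 estimates were below 0 (median -0.01), beside 55.1% of all tested probe sets. Glrb was the only gene of the 5 at which both G93A-SOD1 arrays lay below the disease-free range, which 15.6% of all tested probe sets showed. In the list of GABA synthesis, loading and uptake 3 of 5 genes on the array were tested. Beside Gad1 and Slc32a1 this was Slc6a13, a GABA transporter of meninges and other non-neuronal cells, at -0.16 ± 0.16 (SE, adjusted p = 0.903). The median of the 3 was -0.46.

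Among subunits of the GABA-A receptor, 5 of 10 on the array were tested. Of these 1 was below 0 at 110 days and 4 at 75 days, beside 55.1% and 57.5% of all tested probe sets. The medians were 0.10 at 110 days and -0.62 at 75 days. Only 3 of the 5 passed the filter through both groups of arrays, which Gabrg1 and Gabra6 did not. The counts and medians thus rest in part on genes that the filter selected, and are a description. Gabrg1, encoding a gamma subunit, differed in sign between the ages: it read 92.1 in G93A-SOD1 cord at 110 days, against 63.9 in WT-SOD1 and 66.6 in nontransgenic cord. Its 75-day intensity was 42.2 in G93A-SOD1 cord, against 71.4 in WT-SOD1 and 76.2 in nontransgenic cord. The G93A-SOD1 array was thus the highest at one age and the lowest at the other. Its log2 difference was 0.50 at 110 days and -0.80 at 75 days. Gabrg1 passed the filter only through the 110-day G93A-SOD1 array, so these values are a description with no test. Gabra2, encoding an alpha subunit, was at 0.17 (adjusted p = 0.979) at 110 days and -0.62 (adjusted p = 0.508) at 75 days. Gabbr1, a subunit gene of the metabotropic GABA-B receptor, was at -0.10 ± 0.15 (SE, adjusted p = 0.977) at 110 days.

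The postsynaptic side was represented by 7 tested genes of the scaffold and chloride list. At 110 days 6 were below 0 (median -0.29), beside 55.1% of all tested probe sets. At 75 days 7 were below 0 (median -0.16), beside 57.5% of all. Slc12a5 passed the filter only through disease-free arrays, so 6 of the 7 passed through both groups and the counts are a description. Gphn, encoding gephyrin, the scaffold that holds the Glrb product at synapses, read 156 in G93A-SOD1 cord at 110 days, against 165 in WT-SOD1 and 220 in nontransgenic cord. The younger arrays gave 181 in G93A-SOD1 cord, against 191 in WT-SOD1 and 180 in nontransgenic cord. Gphn thus overlapped with the disease-free arrays at 75 days, and its log2 difference at 110 days was -0.29 ± 0.19 (SE, adjusted p = 0.75). Gabarapl2, of the GABA-A receptor-associated protein family, was at -0.49 ± 0.13 (SE, adjusted p = 0.199), Slc12a2, a chloride importer gene, at -0.29 (adjusted p = 0.714) and Gabarapl1 at -0.29 (adjusted p = 0.668).

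Of 17 interneuron marker genes on the array 13 were tested. At 110 days 10 of the 13 were below 0 (median -0.09), beside 55.1% of all tested probe sets. At 75 days 6 were below 0 (median 0.07), beside 57.5% of all. En1 passed the filter only through the 75-day G93A-SOD1 array. The largest differences at 110 days were those of the calcium-buffer genes, Calb1 at -1.42 ± 0.51 (SE, adjusted p = 0.376), Calb2 at -0.47 ± 0.13 (SE, adjusted p = 0.218) and Pvalb at -0.36 ± 0.14 (SE, adjusted p = 0.419). Calb1 and Pvalb are on the cerebellar list too. Of the 13, only these 3 calcium-buffer genes lay below the disease-free range on both G93A-SOD1 arrays, where 15.6% of all tested probe sets did.

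Pan-neuronal and synapse genes were also lower in sum on both G93A-SOD1 arrays, and their part in the result was not tested. Of 13 tested genes of this list 11 had an estimate below 0 at 110 days (median -0.33), beside 55.1% of all tested probe sets. At 75 days 8 were below 0 (median -0.12), beside 57.5% of all. With an unadjusted p under 0.05 in limma, 6 of the 13 lay lower at 110 days, which 5.61% of all tested probe sets did. On both G93A-SOD1 arrays 6 of the 13 read below all disease-free arrays, where 15.6% of all tested probe sets did. Syt1 passed the filter only through disease-free arrays, and without it both of these last counts were 5 of 12. The summed intensity of 14 genes of this list was 10453 (110 days) and 11899 (75 days) in G93A-SOD1 cord and 12743 to 13962 in disease-free cord. Snap25, a gene of the release machinery in all neurons, stood at -0.47 ± 0.13 (SE, adjusted p = 0.224) and Tubb3, a neuronal tubulin gene, at -0.25 (adjusted p = 0.665) at 110 days. In the list of excitatory and motor neuron markers, 9 genes were tested, of which Tlx3 passed the filter only through the 75-day G93A-SOD1 array. Nefm, a neurofilament gene, fell at 110 days by 0.82 on the log2 scale (adjusted p = 0.0301), where 0.134% of all tested probe sets passed as lower. The median of that list was -0.18 at 110 days and 0.08 at 75 days, and of its members on the array Isl1 was at the floor on all arrays. The summed intensity of the list was 2743 (110 days) and 3424 (75 days) in G93A-SOD1 cord and 3410 to 4134 in disease-free cord. It thus lay within the disease-free range at 75 days.

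Genes known from cerebellum also varied between the arrays. The summed intensity of 14 cerebellar markers was 3914 (110 days) and 4352 (75 days) in G93A-SOD1 cord, against 7276 and 5197 in WT-SOD1 cord and 5305 and 6745 in nontransgenic cord. Pvalb, which is also on the interneuron list, made up 2186 (110 days) and 2614 (75 days) of the G93A-SOD1 sums. In disease-free cord Pvalb read 2678 to 3034. Zic1, a transcription factor gene of granule cells, stood at a log2 difference of -1.42 (adjusted p = 0.248) at 110 days. Of the 11 tested, 8 lay below the disease-free range on both G93A-SOD1 arrays, where 15.6% of all tested probe sets did. Of these, Gabra6 and Car8 passed the filter only through disease-free arrays, and without them it was 6 of 9. Zic4 and Pcp4 were at the floor on all arrays. Gabra6, a GABA-A subunit gene typical of cerebellar granule cells, read 21.3 in G93A-SOD1 cord at 110 days, against 429 in WT-SOD1 and 85.5 in nontransgenic cord. At 75 days it read 25.2 in G93A-SOD1 cord, against 44.8 in WT-SOD1 and 290 in nontransgenic cord. Cerebellar neurons are known to express Gad1 and Slc32a1 as well. The part of cerebellar transcripts in the results was not tested. The 2 disease-free arrays with the higher cerebellar sums (WT-SOD1 at 110 days, nontransgenic at 75 days) also had the higher bacterial spike-in levels. With a term for that level the 110-day difference was -0.71 for Glrb (adjusted p = 0.031), -0.57 for Gad1 (adjusted p = 0.0538) and -0.50 for Slc32a1 (adjusted p = 0.111), beside 1.6% of the tested probe sets passing as lower.

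Microglial and some astrocyte genes were higher at 110 days. Of 12 tested microglia and macrophage genes 11 rose in G93A-SOD1 cord at 110 days, where 1.38% of the tested probe sets did, with a median log2 difference of 2.08 at 110 days and 0.22 at 75 days. Aif1 and Lyz2 passed the filter only through the 110-day G93A-SOD1 array, and without them 9 of 10 rose. The summed intensity over 15 genes was 9866 (110 days) and 2751 (75 days) in G93A-SOD1 cord and 2398 to 2947 in disease-free cord, with Ptprc at the floor on all arrays. Of 9 astrocyte genes 3 rose (Gfap, Fabp7 and Serpina3n), and of 8 myelin genes 0 passed (median -0.21). The 75-day G93A-SOD1 array, whose microglial sum lay within the disease-free range, was the one on which Glrb and Gad2 read lowest. Gad1 and Slc32a1 read lowest on the 110-day G93A-SOD1 array, whose microglial sum was the highest, and the part of microglial RNA in the results was not tested.

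**Figure D4:**
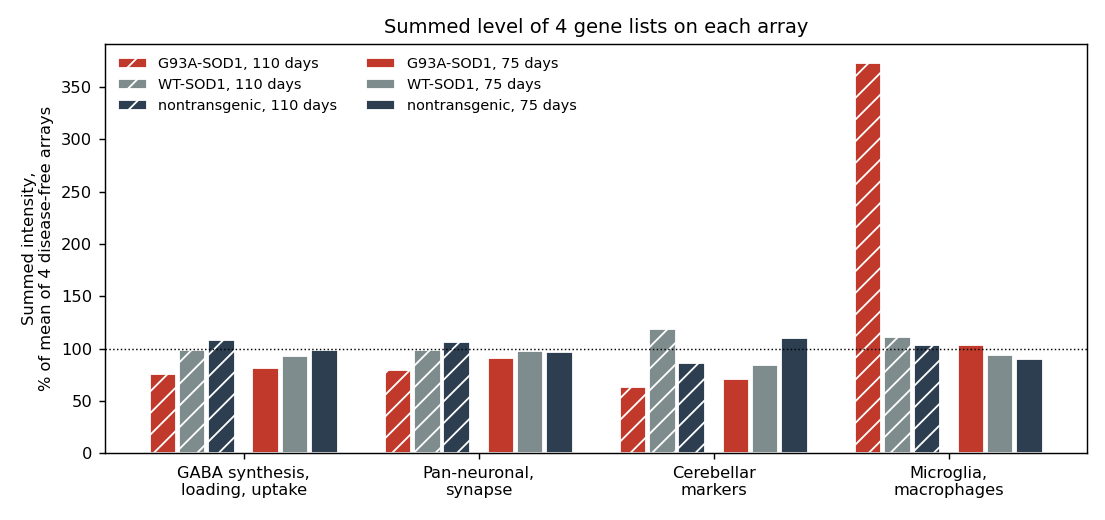
Summed intensity of 4 gene lists on each array, in percent of the mean of the 4 disease-free arrays (dotted line), hatched for 110 days and plain for 75 days. The GABA list (5 genes) stands at 75.6% and 82.1% for G93A-SOD1 at 110 and 75 days, the pan-neuronal list at 79.8% and 90.8%, the cerebellar list at 63.8% and 71%, and the microglial list at 372.6% and 103.9%. In G93A-SOD1 cord, Slc32a1 and Gad1 supply most of the GABA sum, and Pvalb supplies most of the cerebellar sum.

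The genes whose pattern over the 6 arrays was most like that of each member were found by Pearson's r of log2 values among 5195 other genes. With so few arrays, shared by all genes, many genes reach a high r, and the values are a description. For Glrb they were Ndufa9 (r = 0.995), a complex I gene, the tau gene Mapt (0.994) and Mat2b (0.993). Mapt read 1089 and 1062 in G93A-SOD1 cord at 110 and 75 days, 1176 and 1175 in WT-SOD1 cord, and 1290 and 1134 in nontransgenic cord, so its order was that of Glrb except between both WT-SOD1 arrays, which were nearly level for each gene, and its span was smaller. For Gad1 they were Ndufab1 (0.991), Snap25 (0.988) and Olfm1 (0.985), and for Slc32a1 Agap3 (0.991), Kctd17 (0.988) and Itih3 (0.987). Snap25 read 2371 and 2424 in G93A-SOD1 cord at 110 and 75 days, 3297 and 2712 in WT-SOD1 cord, and 3253 and 2864 in nontransgenic cord. For Gad2 they were Lypla1 (0.994), Ksr1 (0.983) and Kif1b (0.980), and for Glra1 Il27ra (0.988), Wbp1 (0.986) and Hgs (0.986). No gene was among the nearest for more than 1 of the 5 genes.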

How the data were processed

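Spinal cord poly(A) RNA was prepared from 4 cords, made into biotin-labelled cRNA, and hybridised and scanned once, per the labels' protocols. Each deposited value is a linear intensity, and the authors' probe summary and scaling are not given in the sources used here. Array medians lay within 0.059 on the log2 scale, so the intensities were used as deposited. Of 12488 rows, 66 control probe sets were left out of the tests.

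Symbols came from the platform annotation: of 12422 probe sets it gave 1 symbol to 10833, more than 1 to 396 and no symbol to 1193. Of the first, 10817 matched the RefSeq gene table by Entrez identifier and 0 symbols changed. The probe set with the highest mean stands for its gene.

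Differences of log2 intensities were tested in R 4.3.3 with limma 3.58.1 and Benjamini-Hochberg adjustment over 6737 probe sets at 0.05. The fit had 4 means (G93A-SOD1 and disease-free at each age) with 2 residual degrees of freedom, and WT-SOD1 was compared with nontransgenic on 4 arrays with age as a term and 1 residual degree of freedom. No group has a second array, so the p-values of the first fit rest on how WT-SOD1 and nontransgenic arrays differ. In that fit limma drew the spread of each probe set toward a shared value, 0.124. The shared value weighed as 5.13 degrees of freedom, beside the 2 of the probe set. In the second fit limma gave every tested probe set the same spread, 0.193.

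Named genes followed a rule: the 5 genes; in each inhibitory list all that passed and the 3 with the largest 110-day difference; in other lists up to 4 that passed or the 2 brightest; and for each member the 3 genes nearest by r. Some genes were named after their values were seen. Isl1, Zic4, Pcp4 and Ptprc are named as markers at the floor and Gphn as the gephyrin gene. En1, Slc12a5, Syt1, Tlx3, Car8, Aif1 and Lyz2 are named for how they passed the filter. Members and lists were chosen with earlier results of these data known. Alternatives varied the floor, filter, scaling, moderation, probe sets, added terms and arrays left out.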

Additional observations from a re-analysis of the deposited data

How the results depend on the processing

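For the members, 312 of 320 alternative values kept sign and side of the threshold. The side in fits with 1 array left out is not read as a result, since these leave 1 array in a disease-free group. Besides the values already given for Glrb, Gad1 and Slc32a1 at 110 days, 2 for Gad2 moved with the floor at the 40th percentile (-0.15 at 75 days and 0.10 for the change), and 4 estimates turned sign: Gad2 with age without the nontransgenic 75-day array (0.029), Glra1 at 110 days with quantile normalization (0.029), and Slc32a1 with age with quantile normalization (-0.038) and without the nontransgenic 110-day array (-0.057, in a range of -0.057 to 0.18 with 1 array left out). Dim signal limits Gad2.

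Counts over all probe sets moved more. For G93A-SOD1 at 110 days the 102 calls became 66 with the higher floor, 42 with no filter, 266 with the spike-in term and 148 to 591 with 1 array left out. At 75 days the 0 calls in limma (664 with an unadjusted p under 0.05) became 50 with no filter, 1 with the spike-in term, 43 with a WT-SOD1 term and 13 to 116 with 1 array left out. For the change between ages the 28 calls (26 higher, 2 lower) became 3 with the higher floor, 76 unfiltered, 16 with a filter on mean intensity, 2 with arrays scaled to 1 median (1 higher, 1 lower), 90 with the spike-in term, 70 with the WT-SOD1 term and 51 to 135 with 1 array left out. For age in disease-free cord the 1 call became 0 with no filter (589 with an unadjusted p under 0.05), 6 with the spike-in term, 15 with the WT-SOD1 term and 2 to 17 with 1 array left out. For WT-SOD1 the 7 calls became 0 with the higher floor (64 with an unadjusted p under 0.05), 0 with no filter (546), 0 with arrays scaled to 1 median (43) and 2 with a trended, robust moderation. The counts with 1 array left out come from fits with 1 array in a disease-free group, and no conclusion is drawn from them. The cause of the moves was not tested. No paired analysis was possible because each genotype and age has 1 array and the labels give no replicate numbers.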
